A study of Mus musculus with 27 samples.

Results

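Total RNA of RAW264.7 cells, an established mouse macrophage line, was compared between LPS with TM7nox and LPS with the vehicle alone. The comparison uses 8 of the 27 libraries of the series: the 4 replicates of each of these total RNA groups, as the labels name them. Both groups were kept for 6 h in LPS at 1 µg/ml, the first with TM7nox at 10 µM and the second with DMSO, the solvent. Another group of 4 total RNA libraries, cells in DMSO without LPS, gives the unstimulated level and shares the estimate of the spread, and no difference from it is tested here. The cells come from 1 tumour-derived line, and the labels do not say that the replicates were separate cultures, so p-values measure the spread between these libraries, which may be technical. TM7nox without LPS was not analysed here, so what the compound does in resting cells is not part of the comparison.

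LPS is a lipid-linked sugar of the outer wall of Gram-negative bacteria. It binds Tlr4 with its partners Cd14 and Ly96, and the signal runs through Myd88 to NF-kB and MAP kinases and through Ticam1 to the interferon regulatory factors. Macrophages answer with cytokines, chemokines, antiviral genes and nitric oxide. TM7nox is one of the tanshinone mimics, small molecules made to keep the RNA-binding protein HuR, the product of Elavl1, off its mRNAs, many of which carry AU-rich stretches and encode inflammatory proteins. Several other programmes are described below, chosen with earlier results of these data known. They are usual answers of cells to reactive chemicals or to short supply. Nrf2 (gene Nfe2l2) is a transcription factor held down by Keap1, a sensor of electrophiles, and turns on antioxidant and detoxifying genes together with small Maf proteins. Atf4 is translated more when kinases phosphorylate eIF2alpha, and turns on genes of amino acid supply, tRNA charging and stress control.

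The 4 LPS libraries held 17361022 to 28285856 counts in all and the 4 LPS+TM7nox libraries 16258731 to 26582325. All 10 macrophage markers (Csf1r, Adgre1, Itgam, Cd68, Cd14, Spi1, Fcgr3, Tyrobp, Lyz2 and Mrc1) lay above 1 CPM (the gene’s reads for every 1000000 reads of the library, scaled by TMM) in each of the 8 libraries. Their summed level was 6144 to 8859 CPM in LPS and 4233 to 7969 CPM in LPS+TM7nox. The T cell, fibroblast, epithelial and mast cell lists summed to under 1 CPM in each library, with Cd8a, Trac, Epcam, Krt8 and Cpa3 at 0. Of the B cell list, Pax5 alone had a mean of 1 CPM or more, and Cd79b was at 0. Of the neutrophil list, S100a8 alone did, with S100a9 and Ly6g at 0. The neutrophil list summed to 1.99 to 4.64 CPM in LPS and 0.205 to 0.622 CPM in LPS+TM7nox. In bulk RNA, fewer cells of a type and less RNA per cell cannot be told apart. Mitochondrially encoded genes took 15.4% ± 2.43 (SD, n = 4) of the counts of LPS cells and 17.4% ± 1.60 of those with the compound (exact two-sided permutation test, p = 0.200, adjusted 0.514, where 0.0286 is the smallest p possible). The first principal component, with 43.5% of the variance, put all LPS libraries at 16.6 to 40.4 and all LPS+TM7nox libraries at -30.4 to -20.4. The second, with 29.9%, put both replicates numbered 1 at the positive end, at 26.4 and 41.9.

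TM7nox moved many genes in both directions in the LPS-treated cells. Of 12369 genes tested, 1704 differed at an adjusted p under 0.05 in edgeR's quasi-likelihood test, the call used throughout. Of these, 912 were higher with TM7nox, which is 7.37% of the genes tested, and 792 were lower, which is 6.40%. The median log2 fold change over all genes was 0.00. Calls at a log2 fold change of 1 or more numbered 325 higher and 290 lower. The number lower was 519 without LPS+TM7nox replicate 3 and 503 without LPS+TM7nox replicate 4. The libraries of the groups did not overlap for 1575 of the called genes, and over all genes tested 11.4% lay apart with TM7nox higher and 10.2% with TM7nox lower. With the replicate number as a block the calls numbered 3091, or 12.3% higher and 12.7% lower, and included all 1704. Replicates 1 and 2 alone gave 168 calls and replicates 3 and 4 alone 3489. All 1700 called genes that could be fitted in replicates 1 and 2 had the same direction there, as did all 1698 in replicates 3 and 4. The same libraries gave the calls, so this shared direction is largely set by how the genes were chosen. Of these genes, 166 were also called in replicates 1 and 2 and 1620 in replicates 3 and 4. Of the 206 called genes the naming rule picks, 149 lost their call in replicates 1 and 2 alone, which is not repeated gene by gene below. A called gene whose change is given below kept its call without each of the 8 libraries in turn, unless libraries are named beside it.

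**Figure D1:**
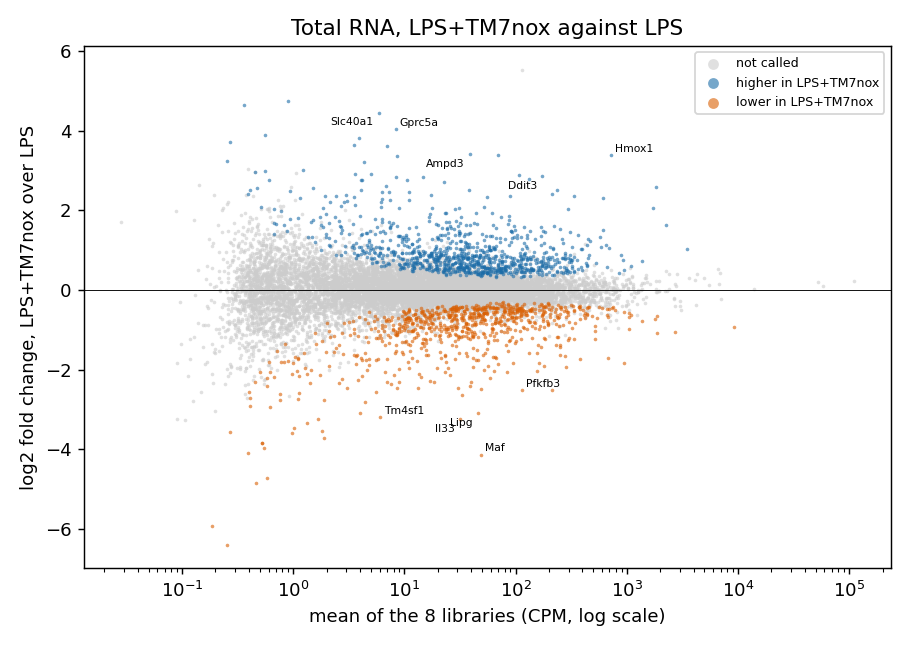
Each point is 1 of 12369 genes, with the mean level over the 8 libraries (CPM, log axis) across and the log2 fold change of LPS+TM7nox over LPS up; blue points are the 912 genes called higher, orange points the 792 called lower, and grey points were not called. Hmox1 and Maf lie far from 0 at levels well above 1 CPM.

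Among called genes without overlap and with a mean of at least 5 CPM, the 12 that TM7nox raised most included Slc40a1, Hmox1, Ampd3 and the amino acid transporters Slc6a9 and Slc1a4. Slc40a1, which encodes ferroportin, the exporter of iron from macrophages, lay at 0.962, 0.250, 0.488 and 0.398 CPM in LPS replicates 1 to 4 and at 9.61, 13.1, 12.1 and 10.1 CPM with TM7nox. Its lowest library with TM7nox was far above its highest LPS library, and its log2 fold change was 4.45 (SE 0.500, adjusted p = 6.85e-05). It lies on chromosome 1 at 45947211 to 45965683 (GRCm39). Hmox1 encodes heme oxygenase, which breaks heme down to iron, carbon monoxide and biliverdin. It was at 95, 99.4, 161 and 154 CPM in LPS and at 1164, 1747, 1214 and 1186 CPM with TM7nox, while DMSO cells held 75.8 ± 18.2 CPM. All 4 libraries with TM7nox stood above all 4 without it, by a log2 fold change of 3.38 (SE 0.235, adjusted p = 1.41e-06). Ampd3, an AMP deaminase that turns AMP into IMP, was at 5.20, 6.03, 8.79 and 6.84 CPM in LPS and at 90.4, 57.0, 71.6 and 67.3 CPM with TM7nox. The groups lay apart by a factor of 10.6 (log2 fold change 3.41, SE 0.185, adjusted p = 1.92e-07). Ampd3 (chromosome 7, 110366387 to 110411617) overlaps Gm55849 on the same strand and Rnf141, among others, on the other, and the strand setting of the counting is not stated.

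The other genes of this group are mostly membrane proteins and stress regulators. Gprc5a, an orphan receptor, rose from 0.968 ± 0.305 to 15.8 ± 2.53 CPM (SD, n = 4 here and below). Aqp9, a channel for water, glycerol and other small solutes, rose from 1.06 ± 0.418 to 13.0 ± 5.70 CPM. Procr, the endothelial protein C receptor, rose from 25.6 ± 6.31 to 189 ± 38.4 CPM, and DMSO cells held 3.32 ± 3.34. Trib3, Slc6a9, Ddit3 and Slc1a4 also belong here and are described with the Atf4 targets. Zfp945, a zinc finger protein, rose from 1.18 ± 0.466 to 8.91 ± 1.26 CPM. Fam13c was the one of the 12 whose mean in DMSO lay above both LPS groups: DMSO cells held 37.0 ± 6.5 CPM, LPS cells 2.05 ± 1.25 and LPS+TM7nox cells 14.9 ± 3.97. Its log2 fold change with TM7nox was 2.83 (SE 0.372, adjusted p = 0.000210).

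Under the same conditions, the 12 genes that TM7nox lowered most included Maf, Il33, Lipg, Ctsc, Abca1 and Pfkfb3. Maf encodes c-Maf, a transcription factor that in macrophages drives Il10 among other genes. It was at 118, 44.8, 102 and 105 CPM in LPS and at 4.24, 1.72, 7.99 and 6.96 CPM with TM7nox. The highest library with TM7nox lay below the lowest LPS library, by a log2 fold change of -4.14 (SE 0.668, adjusted p = 0.000974). DMSO cells held 11.8 ± 8.0 CPM of Maf, which lies on chromosome 8 at 116409632 to 116434579. Il33, an alarm cytokine of the interleukin-1 family, was at 17.5, 72.2, 68.4 and 70.7 CPM in LPS and 0.190, 6.89, 9.38 and 7.50 CPM with TM7nox. Replicate 1 was the lowest of each group, and the groups did not overlap (log2 fold change -3.24, SE 0.633, adjusted p = 0.00360). Lipg, endothelial lipase, was at 40.7, 53.9, 114 and 119 CPM in LPS and 3.35, 4.88, 16.9 and 12.8 CPM with TM7nox. Replicates 3 and 4 were high in both groups, and each replicate fell with the compound (log2 fold change -3.10, SE 0.472, adjusted p = 0.000656).

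Of the strongest decreases, Ctsc and Abca1 ended near the level of unstimulated cells, and the means of the others given here stayed above it. Ctsc, the lysosomal protease cathepsin C that activates granule proteases, fell from 366 ± 64.6 to 63.8 ± 11.1 CPM, and DMSO cells held 72.3 ± 18.9. Abca1, which exports cholesterol to lipoproteins, was at 76.7, 99.2, 71.0 and 82.3 CPM in LPS and at 15.0, 16.8, 14.1 and 13.0 CPM with TM7nox. Its log2 fold change was -2.48 (SE 0.139, adjusted p = 1.92e-07), and DMSO cells held 12.2 ± 1.28. Pfkfb3, whose product makes the signal that speeds up glycolysis, fell from 195 ± 32.9 to 33.9 ± 14.4 CPM, with 19.3 ± 1.11 in DMSO. It overlaps Gm75633 and Gm37975 on the same strand. Dusp2, a nuclear phosphatase of MAP kinases, fell from 57.1 ± 7.81 to 9.18 ± 1.65 CPM, against 4.09 ± 3.23 in DMSO. Marcks, an actin-binding substrate of protein kinase C, fell from 51.8 ± 3.56 to 9.32 ± 3.09 CPM, against 0.276 ± 0.295 in DMSO. Timp1, an inhibitor of matrix metalloproteases, fell from 22.5 ± 1.23 to 4.10 ± 1.77 CPM, against 0.0509 ± 0.0418 in DMSO. Tm4sf1, a membrane protein, fell from 10.9 ± 6.03 to 1.22 ± 1.34 CPM, against 0.633 ± 0.805 in DMSO. The log2 fold change of Tm4sf1 was -3.20, and -4.28 without LPS+TM7nox replicate 1. Akap12, a scaffold for protein kinase A, fell from 14.6 ± 4.43 to 2.63 ± 2.10 CPM (adjusted p = 0.0169), against 0.675 ± 1.13 in DMSO. Its log2 fold change of -2.47 was -3.06 without LPS+TM7nox replicate 4. The Akap12 call ended without LPS replicate 4 (adjusted p = 0.0524), with its adjusted p between 3.41e-15 and 0.109 over the 21 alternatives.

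**Figure D2:**
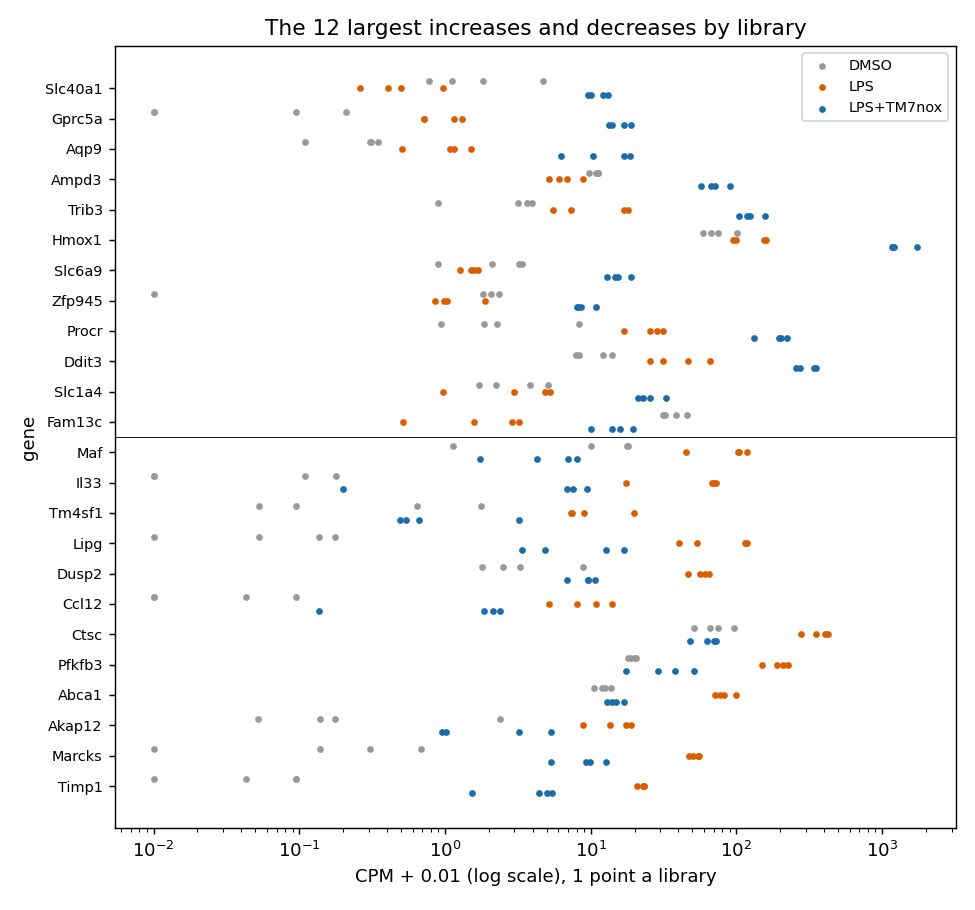
Each row is 1 of the 24 genes with the largest changes among called genes with a mean of at least 5 CPM, 12 higher and 12 lower, and each point is 1 library of DMSO, LPS or LPS+TM7nox cells (CPM plus 0.01, log axis). For all 24 genes the 4 LPS+TM7nox points lie apart from the 4 LPS points, a condition of the rule that picked them.

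The same direction was seen in HuR-bound RNA recovered from the same treatments with an anti-HuR antibody, in 4 libraries per group. There the LPS+TM7nox libraries lay above the LPS libraries for all 12 of the genes raised most and below them for 11 of the 12 lowered most, while Akap12 overlapped. Over all genes, 9.67% lay apart with TM7nox higher in those libraries and 10.1% with TM7nox lower. The genes were picked for large changes in total RNA, and recovered levels can follow total RNA. These levels are not divided by total RNA, so a change in binding to HuR was not tested.

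Genes were then read by pathway, in 35 lists that hold 1142 entries, of which 1059 were tested. A gene may stand in more than 1 list. The share of members called was furthest from the 7.37% and 6.40% of all genes in the lists of Nrf2 targets, Atf4 targets, tRNA synthetases, proteasome subunits, unfolded protein response and autophagy on the higher side, and of chemokines, actin partners, cytokines and matrix proteins on the lower side. These shares describe the lists, which were chosen with earlier results of these data known, and no list was tested as a set. Counts of members below stand beside these 7.37% higher and 6.40% lower. Where the block is used, they stand beside 12.3% higher and 12.7% lower.

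**Figure D3:**
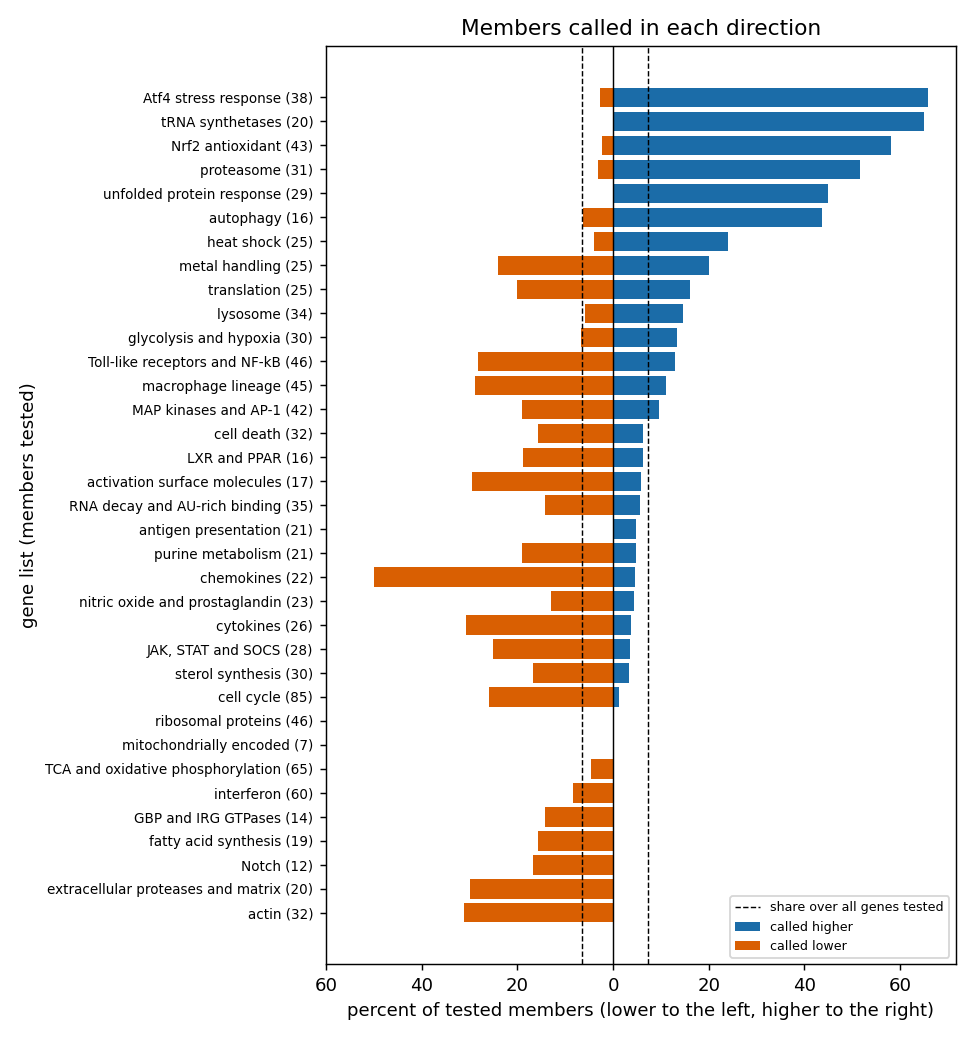
For each gene list, the bars give the percentage of tested members called higher (blue) and lower (orange) with TM7nox, and the dashed lines mark the 7.37% and 6.40% of all genes tested. The longest higher bars are those of the Atf4 targets at 65.8%, the tRNA synthetases at 65.0% and the Nrf2 targets at 58.1%, and the longest lower bar is that of the chemokines, with 11 of 22 members.

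Nrf2 target genes were higher with TM7nox in most cases. Of 43 tested, 25 rose, 1 fell and 17 did not pass the test, and their median log2 fold change was 0.90 against 0.00 over all genes. Replicates 1 and 2 gave a median of 0.99, and replicates 3 and 4 one of 0.81. Among genes of glutathione and thioredoxin chemistry, 9 of 14 rose. Gclm, the regulatory subunit of the enzyme that starts glutathione synthesis, was at 36.8, 37.4, 27.3 and 33.8 CPM in LPS and at 297, 311, 159 and 163 CPM with TM7nox. Its groups lay far apart, with replicates 1 and 2 the higher of the treated libraries (log2 fold change 2.78, SE 0.233, adjusted p = 7.25e-06). Prdx1, a peroxidase that reduces hydrogen peroxide, was at 646, 655, 652 and 690 CPM in LPS and at 2267, 2968, 2874 and 2898 CPM with TM7nox. Its spread within LPS was small beside the difference (log2 fold change 2.06, SE 0.182, adjusted p = 1.04e-05). Srxn1, which repairs overoxidised peroxiredoxins, rose from 67.2 ± 12.4 to 360 ± 50.3 CPM. Slc7a11, the cystine importer that feeds glutathione synthesis, rose from 116 ± 30.9 to 478 ± 70.8 CPM, with 19.4 ± 9.26 in DMSO. Cat, catalase, rose from 41.0 ± 15.6 to 130 ± 62.5 CPM. Glrx, glutaredoxin, was the 1 member that fell, from 362 ± 34.4 to 138 ± 34.7 CPM (log2 fold change -1.39, SE 0.244, adjusted p = 0.00170); it and Txnrd1 below are named after their values were seen. Txn1, thioredoxin itself, was at 156 ± 22.4 and 163 ± 12.1 CPM and did not pass the test.

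Among the genes of detoxification, heme breakdown and NADPH supply, 11 of 21 rose. Hmox1 is described above. Blvrb, a reductase of flavins and of the beta isomer of biliverdin, rose from 25.7 ± 11.9 to 98.4 ± 29.8 CPM. Slc48a1, a heme transporter of the lysosomal membrane, rose from 29.0 ± 9.05 to 149 ± 50.1 CPM. Me1, malic enzyme, a source of NADPH, rose from 20.8 ± 1.93 to 56.4 ± 7.39 CPM. Nqo1, a quinone reductase, was barely detected in LPS, at 0.226, 0.0416, 0 and 0 CPM, and lay at 3.29, 1.53, 0.983 and 1.10 CPM with TM7nox (adjusted p = 0.00179). No fold is given for it, since 2 LPS libraries held no count. The ferritin chains Fth1 (5464 ± 1393 and 7845 ± 635 CPM) and Ftl1 (236 ± 102 and 441 ± 148 CPM) did not pass the test, with adjusted p of 0.115 and 0.0859. Both passed with the replicate block (adjusted p = 0.00358 and 2.95e-05), with adjusted p over the 21 alternatives of 0.00105 to 0.268 for Fth1 and 1.06e-06 to 0.587 for Ftl1. Ferritin genes have near-identical processed copies that can share reads.

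Regulators of the Nrf2 programme itself behaved unevenly. The mRNA of Nfe2l2 was at 126 ± 19.2 CPM in LPS and 119 ± 16.4 CPM with TM7nox, and its repressor at DNA, Bach1, at 68.0 ± 8.82 and 86.6 ± 12.5 CPM, and neither passed the test. Nrf2 is controlled mainly at the protein level, which RNA counts do not measure. The small Maf partners Mafg (71.7 ± 9.74 to 199 ± 27.6 CPM) and Maff (5.76 ± 1.34 to 15.0 ± 3.83 CPM) rose. Sqstm1 encodes p62, an autophagy adaptor that binds Keap1. It was at 491, 352, 641 and 622 CPM in LPS and 3728, 2732, 3233 and 2949 CPM with TM7nox, against 148 ± 14.4 in DMSO. The lowest treated library, replicate 2, held over 4 times the level of the highest LPS library (log2 fold change 2.59, SE 0.191, adjusted p = 2.65e-06). Sqstm1 (chromosome 11, 50089572 to 50107684) overlaps Mrnip and Mgat4b on the other strand. Osgin1, an oxidative stress response gene, rose from 2.13 ± 0.422 to 10.5 ± 6.20 CPM.

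The antioxidant response element is the DNA site bound by Nrf2 with small Maf proteins. Its core, TGACNNNGC on either strand, was searched in RefSeq promoters (GRCm38.p6), each reaching from 250 bases before to 50 bases after the gene's start. It was found in 13 of the 36 Nrf2 targets with a promoter in the table (36.1%), in 10 of the 20 that rose, and in 3781 of all 27025 genes with a promoter (14%). Over the genes tested here it was 1521 of 9029 with a promoter (16.8%), and 12368 were looked up. The same letters were found in 11 of 34 Atf4 targets (32.4%). The AP-1 site TGANTCA can lie inside a match. A match describes these letters and not a bound site. The promoters of 3 members that rose are shown with the match in capitals, because they are glutathione, peroxiredoxin and thioredoxin genes with a match before the start; Txnrd1, thioredoxin reductase, rose from 378 ± 37.8 to 797 ± 93.2 CPM (adjusted p = 9.49e-05). All 3 are on the plus strand and read 5′ to 3′ at chr3:122245307-122245606 for Gclm, chr4:116685349-116685648 for Prdx1 and chr10:82858956-82859255 for Txnrd1. The match begins 134 bases before the start in Gclm, 133 in Prdx1 and 92 in Txnrd1, for which 1 of 3 promoters in the table is shown. In Srxn1, which also rose, the match lies after the start.
Gclm: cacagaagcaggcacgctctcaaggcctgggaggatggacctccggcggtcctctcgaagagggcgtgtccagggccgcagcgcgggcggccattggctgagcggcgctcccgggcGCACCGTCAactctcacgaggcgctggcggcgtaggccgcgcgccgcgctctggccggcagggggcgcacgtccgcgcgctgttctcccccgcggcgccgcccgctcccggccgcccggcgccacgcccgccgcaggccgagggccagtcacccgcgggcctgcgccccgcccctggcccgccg
Prdx1: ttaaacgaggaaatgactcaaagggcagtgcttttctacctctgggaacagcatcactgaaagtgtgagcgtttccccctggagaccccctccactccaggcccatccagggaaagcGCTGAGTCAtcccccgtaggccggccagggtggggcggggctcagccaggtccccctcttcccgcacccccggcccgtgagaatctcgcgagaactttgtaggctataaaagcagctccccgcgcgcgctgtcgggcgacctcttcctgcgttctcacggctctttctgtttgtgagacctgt
Txnrd1: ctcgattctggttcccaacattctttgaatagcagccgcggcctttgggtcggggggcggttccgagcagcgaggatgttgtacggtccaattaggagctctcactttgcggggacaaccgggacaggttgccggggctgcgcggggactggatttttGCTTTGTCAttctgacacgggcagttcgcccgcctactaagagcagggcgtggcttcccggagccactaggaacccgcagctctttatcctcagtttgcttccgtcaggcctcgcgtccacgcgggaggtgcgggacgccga

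Atf4 targets were the list with the largest share of members raised by TM7nox. Of 38 tested, 25 rose, 1 fell and 12 did not pass the test, with a median log2 fold change of 1.18. Replicates 1 and 2 gave a median of 1.37, and replicates 3 and 4 one of 1.04. Of the regulators and kinases, 9 of 17 rose and 1 fell. Trib3, a pseudokinase that restrains Atf4 and Akt, was at 5.49, 7.36, 17.0 and 17.9 CPM in LPS and at 158, 104, 124 and 119 CPM with TM7nox. LPS replicates 3 and 4 were higher than 1 and 2, and no library came near the treated ones (log2 fold change 3.39, SE 0.357, adjusted p = 4.01e-05). Ddit3 encodes Chop, a transcription factor of prolonged stress. It was at 25.6, 31.6, 46.3 and 66.3 CPM in LPS and 342, 274, 258 and 351 CPM with TM7nox. The groups did not overlap (log2 fold change 2.85, SE 0.275, adjusted p = 2.31e-05), and Ddit3 (chromosome 10, 127124268 to 127132163) overlaps Gm20492, Gm66222 and another gene model named Ddit3 on the same strand, and Mars1, Mbd6 and Gm4189 on the other. Ppp1r15a, Gadd34, recruits the phosphatase that restores eIF2alpha, and rose from 70.8 ± 28.4 to 402 ± 138 CPM. Atf4 mRNA, named after its values were seen, rose from 410 ± 131 to 897 ± 197 CPM (log2 fold change 1.13, SE 0.246, adjusted p = 0.00727). Nupr1, a chromatin-associated stress protein, was at 299 ± 81.9 and 329 ± 36.1 CPM and did not pass the test.

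Of the Atf4 targets that are not regulators or kinases, 16 of 21 rose. Most of these act in amino acid synthesis and transport, and the group also holds Gdf15, Herpud1, Vegfa and Stc2. Slc3a2 encodes the heavy chain shared by several amino acid transporters, the cystine importer Slc7a11 among them. It was at 211, 206, 198 and 214 CPM in LPS and at 990, 905, 1071 and 1121 CPM with TM7nox. The spread was narrow in both groups (log2 fold change 2.30, SE 0.116, adjusted p = 1.69e-07). Slc6a9, a glycine transporter, rose from 1.5 ± 0.182 to 15.5 ± 2.53 CPM, and Slc1a4, a transporter of alanine, serine and cysteine, from 3.53 ± 1.98 to 25.6 ± 5.18 CPM. Gdf15, a secreted stress hormone, rose from 0.509 ± 0.156 to 7.35 ± 3.48 CPM. Herpud1, a part of the machinery that removes misfolded proteins from the endoplasmic reticulum (ER), rose from 111 ± 24.2 to 338 ± 89.8 CPM. Asns, asparagine synthetase, named after its values were seen, rose from 95 ± 43.5 to 243 ± 46.8 CPM (adjusted p = 0.0114). Psat1 of serine synthesis was at 136 ± 52.9 and 212 ± 55.1 CPM and Slc1a5, a glutamine transporter, at 163 ± 29.8 and 138 ± 29.8 CPM, and neither passed the test. With the block, Psat1 was higher (adjusted p = 0.000219, 8.19e-05 to 0.390 over the alternatives) and Slc1a5 lower (adjusted p = 0.0309, 0.0143 to 0.853).

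The CEBP-ATF response element is the composite site at which Atf4 pairs with C/EBP proteins. Its core, TGATGNAA on either strand, was found in 8 of the 34 Atf4 targets with a promoter in the table (23.5%), in 5 of the 23 that rose (21.7%) and in 1219 of 27025 genes (4.51%). Over the genes tested it was 259 of 9029 (2.87%). The promoters of 3 genes that rose are shown with matches in capitals, since they carry the element at and around the start of the gene. Asns and Trib3 are Atf4 targets of the list. Slc7a11 stands in the Nrf2 list and is not counted in the shares of Atf4 targets above. All 3 lie on the minus strand of GRCm38.p6 and are printed 5′ to 3′ along the gene, from chr6:7693160-7693459 for Asns, chr2:152344011-152344310 for Trib3 and chr3:50443564-50443863 for Slc7a11. The match begins 23 bases before the start in Asns, and in Slc7a11 the 2 matches begin 66 and 47 bases before it. In Trib3 the match lies after the start.
Asns: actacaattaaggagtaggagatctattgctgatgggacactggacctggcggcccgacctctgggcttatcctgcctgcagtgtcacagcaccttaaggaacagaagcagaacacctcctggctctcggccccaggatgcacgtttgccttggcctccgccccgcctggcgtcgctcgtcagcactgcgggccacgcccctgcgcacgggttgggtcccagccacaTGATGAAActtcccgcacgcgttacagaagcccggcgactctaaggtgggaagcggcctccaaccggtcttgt
Trib3: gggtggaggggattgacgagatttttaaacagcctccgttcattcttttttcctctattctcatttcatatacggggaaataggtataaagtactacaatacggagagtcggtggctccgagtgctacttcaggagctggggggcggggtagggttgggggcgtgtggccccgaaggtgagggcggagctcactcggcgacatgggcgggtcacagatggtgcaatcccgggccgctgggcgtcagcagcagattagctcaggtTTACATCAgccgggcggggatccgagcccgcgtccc
Slc7a11: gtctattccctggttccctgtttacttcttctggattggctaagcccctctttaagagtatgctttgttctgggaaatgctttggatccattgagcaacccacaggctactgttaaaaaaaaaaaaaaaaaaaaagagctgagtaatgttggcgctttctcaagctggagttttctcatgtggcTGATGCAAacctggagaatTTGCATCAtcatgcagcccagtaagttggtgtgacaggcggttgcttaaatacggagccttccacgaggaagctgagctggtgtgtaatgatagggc

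Cytosolic aminoacyl-tRNA synthetases, which load amino acids onto tRNAs, rose in part. Of 20 tested, 13 rose and 7 did not pass the test, 6 of the 20 had a log2 fold change below 0, and 1 fell with the block, with a median log2 fold change of 0.76 (0.86 in replicates 1 and 2, 0.74 in replicates 3 and 4). Aars, for alanine, was at 129, 148, 183 and 196 CPM in LPS and at 479, 404, 474 and 442 CPM with TM7nox. All treated libraries exceeded 400 CPM and no LPS library reached 200 (log2 fold change 1.46, SE 0.138, adjusted p = 1.99e-05). Cars, for cysteine, rose from 87.6 ± 18.1 to 214 ± 18.0 CPM, Sars, for serine, from 262 ± 93.5 to 637 ± 123 CPM, and Nars, for asparagine, from 278 ± 80.1 to 649 ± 125 CPM. Vars, for valine, was at 210 ± 13.5 and 193 ± 9.87 CPM and Kars, for lysine, at 188 ± 4.37 and 162 ± 6.47 CPM. Neither of these passed the test (adjusted p = 0.588 and 0.119), and Kars was lower with the block (adjusted p = 0.0395, 0.00854 to 0.813 over the alternatives).

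**Figure D4:**
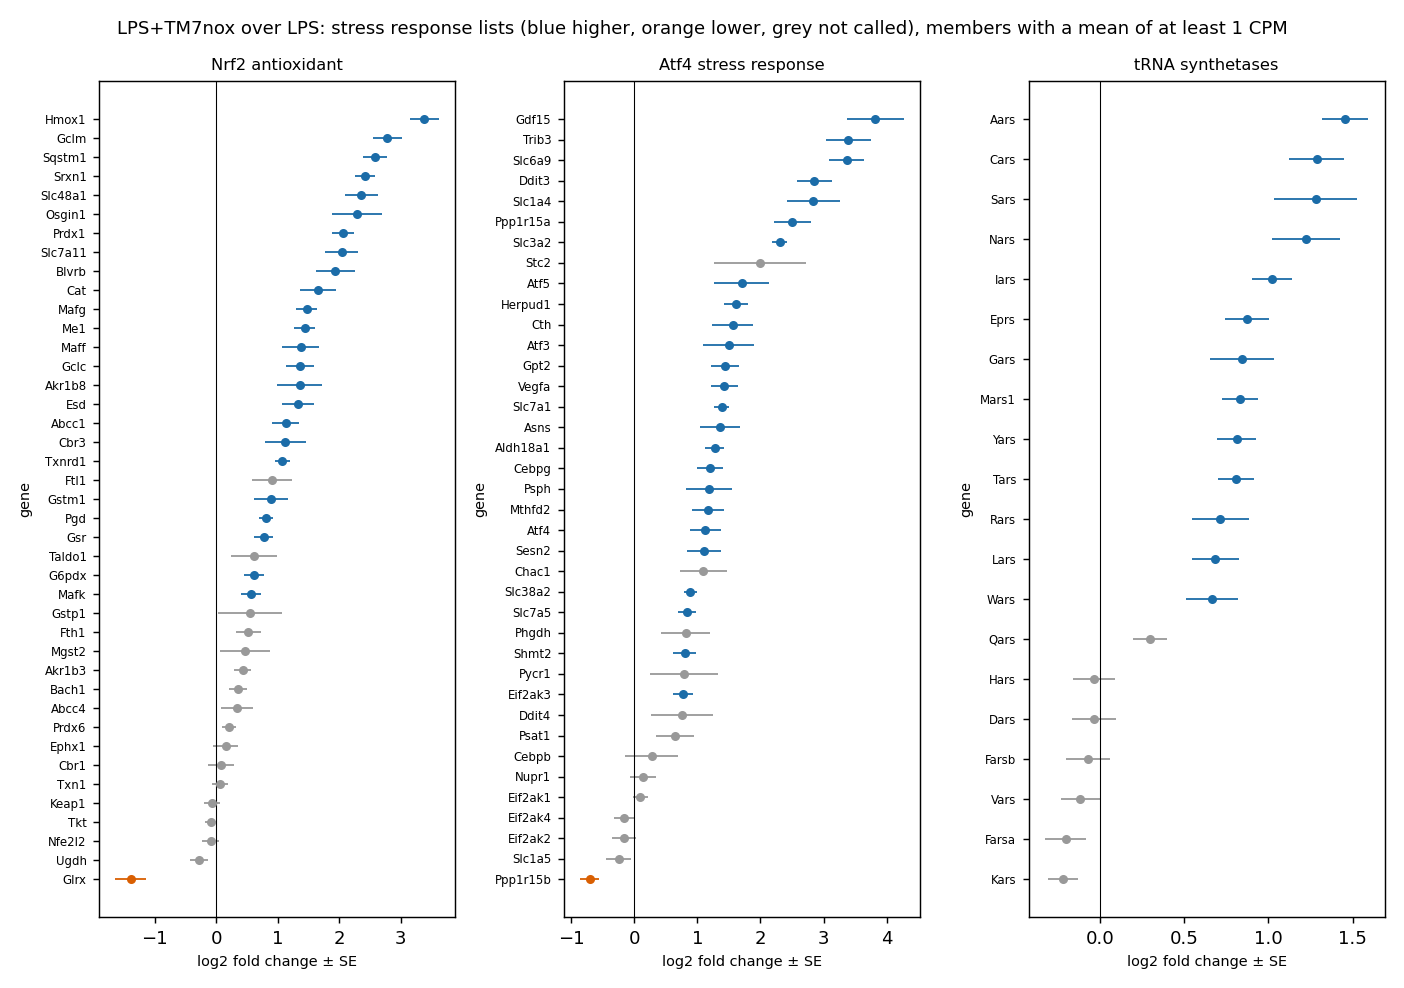
Log2 fold changes with TM7nox and their standard errors for Nrf2 targets, Atf4 targets and tRNA synthetases with a mean of at least 1 CPM; blue members were called higher, orange lower and grey not called. Most members lie to the right of 0, with Hmox1 and Trib3 near 3.4 and Glrx at -1.39.

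Many genes of protein folding in the ER also rose. Of 29 members of the unfolded protein response list tested, 13 rose, the median was 0.51, and all 29 had a log2 fold change above 0. With the replicate block 20 rose. Among the sensors, Ern1, the kinase and RNase Ire1, rose from 19.2 ± 3.40 to 49.4 ± 9.68 CPM and Atf6, a membrane-bound transcription factor, from 105 ± 3.02 to 230 ± 18.5 CPM. Xbp1, whose mRNA Ire1 splices, was at 150 ± 12.4 and 163 ± 11.1 CPM and did not pass the test (splice forms are not separated in gene counts). Hspa5, the chaperone BiP, was at 2432, 1681, 2509 and 2520 CPM in LPS and at 5030, 3163, 5294 and 5216 CPM with TM7nox. Replicate 2 was the lowest in both groups, and the groups did not overlap (log2 fold change 1.03, SE 0.191, adjusted p = 0.00243). Dnajb9, a cochaperone of BiP, rose from 40.3 ± 8.17 to 135 ± 18.1 CPM and Sel1l, of ER-associated degradation, from 194 ± 26.5 to 358 ± 71.8 CPM. The lectin chaperones Calr (1808 ± 293 and 1847 ± 224 CPM) and Canx (989 ± 46.8 and 1257 ± 73.2 CPM, adjusted p = 0.0504) did not pass the test. Canx passed with the block (adjusted p = 0.00991, 0.00119 to 0.579 over the alternatives).

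Fewer heat shock genes passed the test. Of 25 tested, 6 rose, 1 fell, and the median was 0.19. Hspa4l, a nucleotide exchange factor, rose from 33.5 ± 8.49 to 72.4 ± 14 CPM, and the cochaperones Dnajb4 and Dnajb2 rose from 19.2 ± 2.18 to 44.7 ± 9.49 CPM and from 5.80 ± 1.21 to 13.4 ± 0.875 CPM. The abundant chaperones Hsp90ab1 (3759 ± 346 and 4432 ± 192 CPM) and Hspa8 (3230 ± 454 and 3973 ± 228 CPM) did not pass the test (adjusted p = 0.280 and 0.236), and Hspa8 did with the block (adjusted p = 0.0497, 0.0170 to 0.447 over the alternatives).

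Proteasome subunits rose by small amounts in many members. Of 31 tested, 16 rose and 1 fell, with a median of 0.43 (0.54 in replicates 1 and 2, 0.34 in replicates 3 and 4). The number that rose was 7 without LPS replicate 2, 10 without LPS+TM7nox replicate 1 and 9 without LPS+TM7nox replicate 3. Psmd11, of the regulatory lid, was at 204, 206, 225 and 227 CPM in LPS and at 359, 371, 391 and 384 CPM with TM7nox. Its libraries were tight in both groups (log2 fold change 0.81, SE 0.0983, adjusted p = 0.000119). Psmc6 and Psmc2, ATPases of the base, rose from 143 ± 28.4 to 253 ± 31.0 CPM and from 130 ± 15.5 to 220 ± 14.7 CPM. Psma6, of the core, was the member that fell, from 292 ± 63.5 to 181 ± 16.5 CPM (log2 fold change -0.69, SE 0.151, adjusted p = 0.00714). Of 16 autophagy genes, 7 rose and 1 fell, with a median of 0.56. Besides Sqstm1, Gabarapl1, a conjugated membrane marker of autophagosomes, rose from 16.0 ± 0.569 to 37.4 ± 4.60 CPM (it overlaps Gm44243 on the same strand), and Nbr1, another cargo receptor, from 25.1 ± 2.37 to 52.8 ± 5.33 CPM. Becn1, of the initiation complex, was at 43.3 ± 3.07 and 43.6 ± 4.86 CPM.

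In the lysosome list, 5 of 34 rose (14.7%, beside 7.37% over all genes) and 2 fell (5.88%, beside 6.40%), with a median of 0.15. The number that rose was 11 with the block and 3 without LPS+TM7nox replicate 2. Subunits of the proton pump, Atp6v1h (83.6 ± 15.1 to 143 ± 14.8 CPM) and Atp6v1a (180 ± 18.0 to 290 ± 31.6 CPM), rose, and so did Gla, an alpha-galactosidase (20.9 ± 3.35 to 42.4 ± 1.84 CPM). Ctsc fell, as given above. The cathepsins Ctsb (2423 ± 64.2 and 3217 ± 402 CPM) and Ctss (1280 ± 251 and 1404 ± 278 CPM) did not pass the test. The groups did not overlap for Ctsb (adjusted p = 0.0551), which passed with the block (0.0178, 0.00258 to 0.403 over the alternatives).

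Cytokine genes were lower where they passed the test, with 1 exception. Of 26 tested, 8 fell and 1 rose, and the median was -0.53; 5 fell without LPS replicate 3, and 2 rose without LPS+TM7nox replicate 2. Il1b, interleukin-1 beta, was at 1166, 2042, 1294 and 1375 CPM in LPS and at 234, 495, 476 and 448 CPM with TM7nox, against 0.936 ± 1.10 in DMSO. Each library with TM7nox held fewer than each LPS library, and replicate 2 was the highest of both groups (log2 fold change -1.83, SE 0.448, adjusted p = 0.0144). Il1a, interleukin-1 alpha, fell from 453 ± 163 to 118 ± 33.1 CPM. Il10, the main anti-inflammatory interleukin of macrophages, was at 51.5, 40.2, 28.3 and 28.6 CPM in LPS and at 10.4, 17.1, 8.07 and 6.35 CPM with TM7nox. It fell in each replicate (log2 fold change -1.82, SE 0.315, adjusted p = 0.00152). Both interleukin-1 chains and Il10 were thus lower, and Il33 is given above. The member that rose was Vegfa, the vascular growth factor that also stands in the Atf4 and hypoxia lists, from 16.8 ± 5.22 to 45.2 ± 6.18 CPM.

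Some other cytokine mRNAs of the LPS response did not pass the test in either direction. Tnf, tumour necrosis factor, was at 761, 973, 863 and 903 CPM in LPS and at 1036, 1021, 1501 and 1577 CPM with TM7nox. All treated libraries were above all LPS libraries, but the adjusted p was 0.114 (log2 fold change 0.55, SE 0.216, 0.0694 with the block). Tnf was called higher in 4 of the 21 alternatives, with an adjusted p of 2.94e-04 to 0.816 over them. Il6 was at 16.0, 54.5, 106 and 99.2 CPM in LPS and at 12, 23.6, 76.4 and 79.5 CPM with TM7nox. The groups overlapped, with replicates 3 and 4 above replicates 1 and 2 in both (adjusted p = 0.648), and Il6 was lower with the block (adjusted p = 0.0471, 0.00372 to 0.878 over the alternatives). Ifnb1, interferon beta, was at 4.36, 10.0, 14.6 and 13.5 CPM in LPS and at 0.190, 2.44, 8.85 and 8.33 CPM with TM7nox. It was lower in each replicate, but the groups overlapped (adjusted p = 0.332, 0.0202 with the block, 0.00395 to 0.523 over the alternatives). Il1rn, the antagonist of the interleukin-1 receptor, was at 4697 ± 526 and 3637 ± 780 CPM (adjusted p = 0.542).

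Chemokines, the attractants of other leukocytes, showed the largest share of lowered members. Of 22 ligands and receptors tested, 11 fell and 1 rose, and the median was -1.14 (-1.15 in replicates 1 and 2, -1.07 in replicates 3 and 4). Of the CC ligands 6 of 10 fell. Ccl22, which attracts regulatory and type 2 helper T cells, was at 77.9, 198, 156 and 112 CPM in LPS and at 11.4, 58.5, 31.0 and 29.4 CPM with TM7nox. Replicate 2 was highest in both groups and the groups did not overlap (log2 fold change -2.06, SE 0.401, adjusted p = 0.00353). The monocyte attractants Ccl12 (9.53 ± 3.76 to 1.61 ± 1.01 CPM) and Ccl7 (54.1 ± 22.7 to 18.1 ± 4.33 CPM) fell, and so did Ccl6 (14.2 ± 3.72 to 3.56 ± 0.373 CPM). The abundant Ccl3 and Ccl5, ligands of Ccr1 among other receptors, were at 5302 ± 1344 and 5773 ± 1630 CPM and at 1686 ± 233 and 1965 ± 479 CPM. Neither passed the test (adjusted p = 0.897 and 0.698).

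Of the CXC and CX3C ligands, 3 of 7 fell and 1 rose. Cxcl10 and Cxcl11 encode ligands of Cxcr3 that interferons induce. Cxcl10 was at 708, 765, 701 and 722 CPM in LPS and at 259, 374, 279 and 316 CPM with TM7nox. The spread in LPS was small and no libraries overlapped (log2 fold change -1.24, SE 0.211, adjusted p = 0.00137), and Cxcl10 (chromosome 5, 92494497 to 92496748) overlaps Art3 on the other strand. Cxcl11 fell from 147 ± 14 to 41.2 ± 9.24 CPM. Cxcl2, which attracts neutrophils through Cxcr2, went the other way. It was at 841, 1059, 1248 and 1329 CPM in LPS and at 2893, 2084, 4544 and 4225 CPM with TM7nox (log2 fold change 1.62, SE 0.345, adjusted p = 0.00629). Each replicate was higher with the compound, by more than the range of the LPS libraries. The receptors Ccr1 (15.0 ± 7.19 to 3.03 ± 1.08 CPM) and Cx3cr1 (39.5 ± 16.9 to 10.2 ± 7.73 CPM, with 131 ± 21.9 in DMSO) fell, and Ccr2 (3.46 ± 1.25 and 3.64 ± 0.930 CPM) did not pass the test. The log2 fold change of Cx3cr1 was -1.97, and -2.56 without LPS+TM7nox replicate 1.

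**Figure D5:**
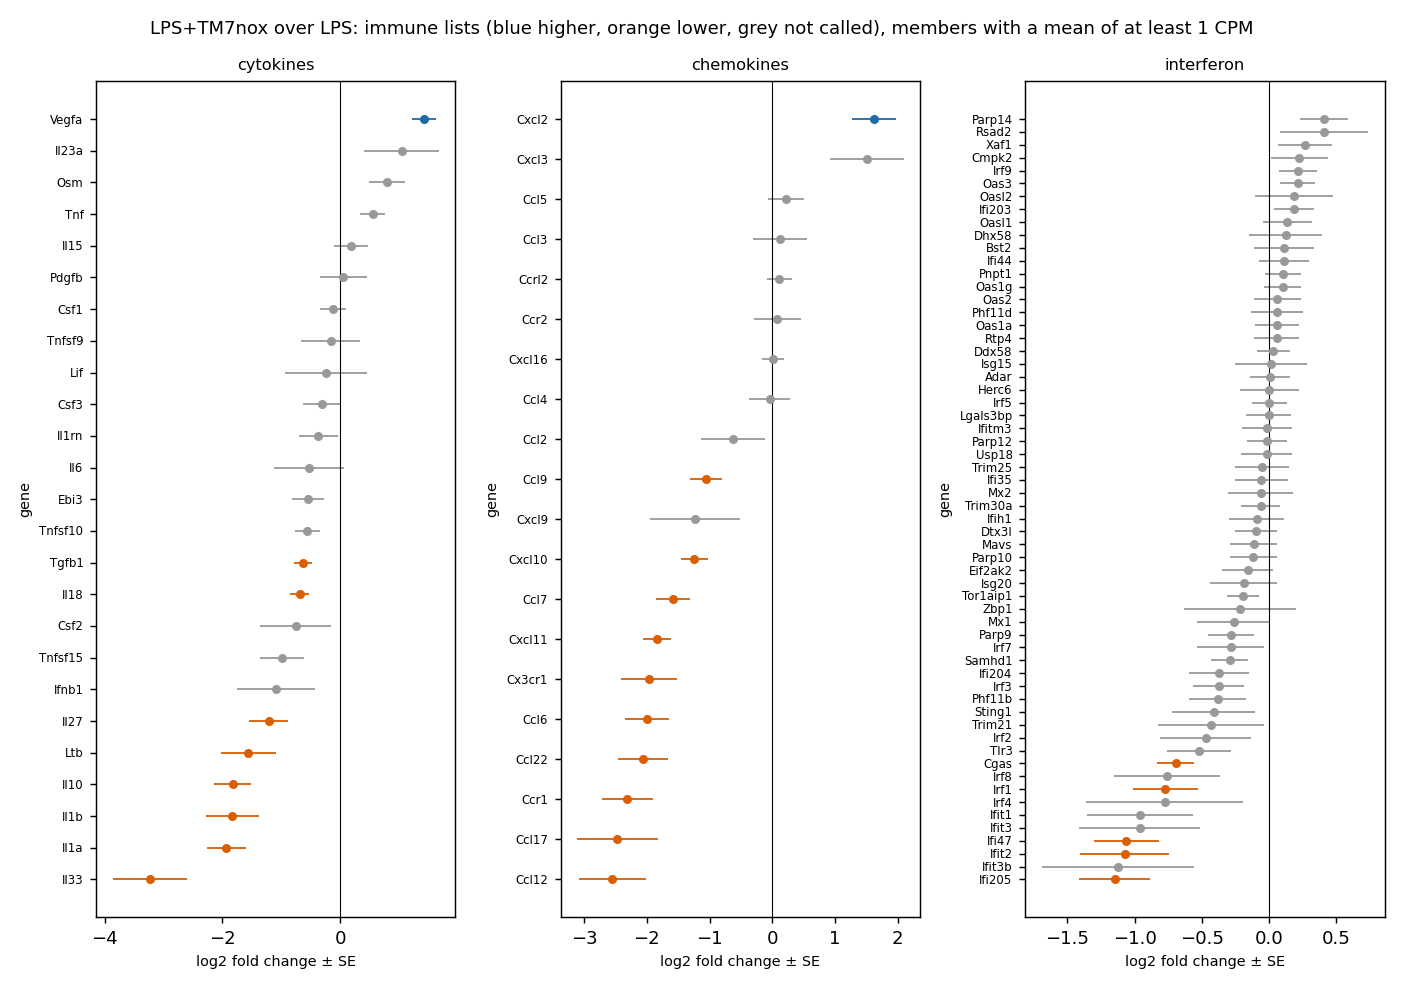
Log2 fold changes with TM7nox and their standard errors for cytokines, chemokines with their receptors, and interferon-response genes with a mean of at least 1 CPM; blue members were called higher, orange lower and grey not called. Cytokine and chemokine members lie mostly below 0, with Cxcl2 at 1.62, whereas interferon-response members gather around 0.

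Genes of the LPS receptor pathway changed in both directions. Of 24 receptors and adaptors, 4 rose and 5 fell. Tlr8, a sensor of single-stranded RNA, fell from 7.32 ± 2.12 to 1.82 ± 0.800 CPM. Irak3, an inhibitor of the Myd88 branch, fell from 44.7 ± 8.33 to 21.9 ± 3.88 CPM. Tlr2, which senses bacterial lipoproteins, was at 233 ± 50.3 and 244 ± 37.9 CPM and did not pass the test. Of 22 NF-kB subunits, kinases and inhibitors, 8 fell and 2 rose. Tnfaip3, the deubiquitinase A20 that shuts NF-kB signalling down, was at 195, 335, 383 and 399 CPM in LPS and at 96.3, 153, 157 and 169 CPM with TM7nox. Replicate 1 was lowest in both groups, and all treated libraries lay below all LPS ones (log2 fold change -1.19, SE 0.215, adjusted p = 0.00203). Nfkbid, a nuclear inhibitor, fell from 81.6 ± 19.1 to 37.0 ± 6.42 CPM and Bcl3, a nuclear partner of p50 and p52, from 126 ± 11.6 to 44.1 ± 9.85 CPM. Tnip3, a binding partner of A20, fell from 367 ± 71.7 to 138 ± 17.2 CPM and Map3k8, the kinase Tpl2, from 42.3 ± 5.57 to 17.9 ± 3.08 CPM. Nfkbia, IkBalpha, named after its values were seen, fell from 676 ± 90.0 to 360 ± 50.7 CPM (adjusted p = 0.000669). Nfkb1, the precursor of p50, was at 605 ± 62.7 and 496 ± 104 CPM (adjusted p = 0.267) and passed with the block (0.0213, 0.0117 to 0.485 over the alternatives). Over the 46 genes of both roles, 13 fell and 6 rose, and 20 fell with the block. The 6 became 2 to 3 without LPS replicate 2, 3 or 4 or without LPS+TM7nox replicate 1 or 4.

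Immediate-early factors and MAP kinase phosphatases were split. Of 42 genes, 8 fell and 4 rose; 8 rose with the block, and 2 rose without LPS replicate 2, 3 or 4 or without LPS+TM7nox replicate 3 or 4. Egr1, an immediate-early zinc finger factor, fell from 88.6 ± 9.20 to 39.8 ± 4.96 CPM, Ier2 from 96.0 ± 20.4 to 40.0 ± 6.11 CPM and Fosl2, an AP-1 subunit, from 125 ± 20.1 to 52.3 ± 5.32 CPM. Jun, another AP-1 subunit, rose from 47.7 ± 11.9 to 86.2 ± 7.78 CPM. Dusp6, a phosphatase of Erk, fell from 32.9 ± 9.02 to 10.1 ± 3.68 CPM. Dusp4, its nuclear relative, was at 152, 117, 124 and 125 CPM in LPS and at 357, 438, 342 and 345 CPM with TM7nox. It rose in each replicate (log2 fold change 1.52, SE 0.206, adjusted p = 0.000262), whereas Dusp2 and Dusp6 fell in each. Of 28 JAK, STAT and SOCS genes, 7 fell and 1 rose, and 4 fell without LPS replicate 2, while 2 rose without DMSO replicate 1. Socs3, which limits signals of Il6 and related cytokines, was at 1119, 975, 1038 and 1036 CPM in LPS and at 280, 372, 315 and 295 CPM with TM7nox. Its libraries formed tight groups (log2 fold change -1.72, SE 0.210, adjusted p = 0.000118). Stat3, which carries the signal of Il10 and Il6, fell from 250 ± 14.4 to 137 ± 11.4 CPM and Il4ra, a receptor chain for Il4 and Il13, from 30.7 ± 4.83 to 6.21 ± 3.56 CPM. Jak1 was at 207 ± 17.6 and 206 ± 17.4 CPM.

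Few interferon-response genes passed the test. Of 60 tested, 5 fell (8.33%, beside 6.40% over all genes) and 0 rose in edgeR, DESeq2 or limma-voom (1 were higher at an unadjusted p under 0.05), and the median was -0.06. With the block 10 fell, and 12.7% of all genes were lower there. The number that fell was 3 without LPS replicate 1, 2 or 4 or without LPS+TM7nox replicate 1, 3 or 4. Rsad2, viperin, an antiviral enzyme, was at 3460, 3125, 4104 and 3905 CPM in LPS and at 2500, 4519, 6210 and 6172 CPM with TM7nox. The groups overlapped, and replicate 1 was lower and the others higher with the compound (adjusted p = 0.484). Irf7, the factor that amplifies the interferon response, was at 1235 ± 113 and 1016 ± 91.5 CPM, Cmpk2 at 1800 ± 160 and 2107 ± 586 CPM and Ifih1, an RNA sensor, at 596 ± 67.1 and 560 ± 135 CPM, and none passed the test. The members that fell included Ifi205 (49.3 ± 6.98 to 22.2 ± 7.04 CPM), Ifi47 (83.7 ± 9.04 to 40.1 ± 10.7 CPM) and Cgas, the sensor of cytosolic DNA (54.0 ± 8.50 to 33.4 ± 5.19 CPM). Of 14 interferon-inducible GTPases 2 fell (14.3%), Tgtp2 (22.5 ± 3.35 to 8.92 ± 1.59 CPM) and Iigp1 (27.4 ± 4.04 to 14.9 ± 2.70 CPM). With the block 5 fell, and 4 fell without DMSO replicate 1. Tgtp2 has a near-identical neighbour, Tgtp1, so its reads may be shared. Of 21 antigen presentation genes, 1 rose (4.76%, beside 7.37% over all genes), H2-M3, and 2 rose without DMSO replicate 1. H2-D1 was at 927 ± 64.8 and 1026 ± 101 CPM and B2m, the light chain of class I molecules, at 893 ± 189 and 966 ± 167 CPM. The H2-M3 call (24.5 ± 2.27 to 36.3 ± 2.96 CPM) ended without LPS replicate 1, 2 or 3 or LPS+TM7nox replicate 1, 3 or 4, with an adjusted p of up to 0.0925 there and of 5.69e-04 to 0.483 over all alternatives.

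Among surface molecules of activated macrophages, 5 of 17 fell and 1 rose, and 8 fell with the block. Cd80, a costimulator of T cells, fell from 57.0 ± 4.99 to 25.2 ± 5.00 CPM, Cd69, an early activation marker, from 16.8 ± 2.13 to 5.78 ± 2.43 CPM and Fas, a death receptor, from 111 ± 16.5 to 58.2 ± 15.9 CPM. Clec4d, a C-type lectin that senses mycobacterial lipids, rose from 155 ± 9.76 to 236 ± 7.27 CPM. Tnfrsf1b, a receptor for Tnf, was at 1503 ± 158 and 1286 ± 70.0 CPM and did not pass the test. Of 23 genes of nitric oxide, itaconate, arginine and prostaglandin metabolism, 3 fell and 1 rose; 1 fell without LPS+TM7nox replicate 1 or 4 and 5 without DMSO replicate 1. The number that rose was 0 without LPS replicate 1 or 2 or LPS+TM7nox replicate 3 or 4, and 2 without LPS+TM7nox replicate 1 or DMSO replicate 1. Nos2, the inducible nitric oxide synthase, was at 632, 717, 724 and 687 CPM in LPS and at 229, 368, 396 and 359 CPM with TM7nox. Replicate 1 was lowest in both groups, and the groups did not overlap (log2 fold change -1.03, SE 0.236, adjusted p = 0.00980). Ptgs2, cyclooxygenase-2, was at 2439, 3620, 3700 and 3467 CPM in LPS and at 2430, 2213, 3290 and 2934 CPM with TM7nox. These overlapped (log2 fold change -0.28, SE 0.350, adjusted p = 0.680). Acod1, which makes itaconate, was at 3605 ± 560 and 2553 ± 508 CPM (adjusted p = 0.238).

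Elavl1, the gene of HuR, did not pass the test, and some other binders of AU-rich mRNAs fell. Elavl1 was at 155, 164, 121 and 124 CPM in LPS and at 128, 135, 110 and 105 CPM with TM7nox. The groups overlapped, although each replicate was lower with the compound (log2 fold change -0.24, SE 0.160, adjusted p = 0.384, 0.0440 with the block, 0.0206 to 0.666 over the alternatives). Zfp36, tristetraprolin, which marks AU-rich mRNAs for decay, was at 1188, 864, 1102 and 897 CPM in LPS and at 578, 631, 645 and 549 CPM with TM7nox. The groups lay apart, and the adjusted p was 0.0715 (log2 fold change -0.75, SE 0.260; 0.0159 with the block, 6.07e-05 to 0.368 over the alternatives). Zfp36l1, its relative, fell from 21.6 ± 8.94 to 8.18 ± 2.61 CPM, with LPS replicate 2 at 9.86 CPM inside the range of the treated libraries (log2 fold change -1.40, SE 0.345, adjusted p = 0.0147). Hnrnpd, Auf1, which binds AU-rich elements, fell from 159 ± 12.9 to 112 ± 9.97 CPM and Ptbp1, a binder of pyrimidine-rich RNA, from 273 ± 14.2 to 194 ± 20.3 CPM. Zc3h12c, a relative of the RNase regnase-1, rose from 54.6 ± 14.4 to 120 ± 26.5 CPM, and Noct, nocturnin, fell from 28.8 ± 5.19 to 13.2 ± 1.57 CPM. Over the 35 genes of mRNA decay, 5 fell and 2 rose (9 fell with the block), and the median was -0.11. The number that rose was 1 without LPS replicate 1, 2 or 4 or LPS+TM7nox replicate 3 or 4.

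Of 85 cell cycle genes tested, 22 fell and 1 rose with TM7nox, with a median of -0.51 (-0.44 in replicates 1 and 2, -0.53 in replicates 3 and 4). With the block 43 fell and 4 rose, and 12 to 14 fell without LPS replicate 1, LPS replicate 2, LPS+TM7nox replicate 3 or LPS+TM7nox replicate 4. The number that rose was 2 without LPS replicate 3 and 3 without DMSO replicate 1. Ccnd1, cyclin D1, was at 313, 197, 264 and 221 CPM in LPS and at 57.7, 63.1, 58.8 and 63.8 CPM with TM7nox, with 251 ± 39.1 in DMSO. The treated libraries were nearly equal and far below the rest (log2 fold change -2.03, SE 0.157, adjusted p = 3.98e-06). Ccnd3, cyclin D3, fell from 68.0 ± 2.66 to 20.2 ± 4.84 CPM and Ccne1, cyclin E1, from 12.5 ± 5.42 to 4.16 ± 1.32 CPM. Of the replication genes 9 of 35 fell. E2f7, a repressor of E2F targets, was at 9.62, 3.12, 2.13 and 2.27 CPM in LPS and fell to 0.839 ± 0.322 CPM. LPS replicate 1 was the high library, and the log2 fold change was -2.33 with it and -1.58 without it. Cdc6, which loads the replicative helicase, fell from 8.60 ± 4.88 to 2.52 ± 0.377 CPM. Pcna, the sliding clamp, was at 106 ± 7.85 and 100 ± 14.8 CPM, with 187 ± 28.3 in DMSO, and did not pass the test.

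Of the mitosis genes 7 of 28 fell, with a median of -0.74, and 19 fell with the block. Cdk1, the mitotic kinase, fell from 54.8 ± 6.81 to 26.2 ± 7.53 CPM. Mki67, a marker of cycling cells, was at 453, 341, 145 and 158 CPM in LPS and at 223, 217, 97.8 and 82.9 CPM with TM7nox, with 1055 ± 143 in DMSO. Replicates 1 and 2 held more than replicates 3 and 4 in both groups, so the groups overlapped (adjusted p = 0.184, 0.0108 with the block, 1.63e-05 to 0.490 over the alternatives). Cdkn1a, p21, was at 254 ± 7.81 and 270 ± 27.5 CPM and did not pass the test.

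Macrophage identity genes fell in part. Of 45 tested, 13 fell and 5 rose; 20 fell with the block and 8 without LPS+TM7nox replicate 4. Maf, given above, is one of those that fell. The Fc receptors for IgG, Fcgr1 (416 ± 47.6 to 174 ± 32.0 CPM) and Fcgr3 (21.3 ± 1.87 to 9.17 ± 1.23 CPM), fell, and so did the integrin Itgam (56.5 ± 9.22 to 27.4 ± 3.96 CPM). Cd14, the LPS coreceptor, fell from 2283 ± 198 to 1441 ± 267 CPM, a call that ended without LPS replicate 1 or 4 or LPS+TM7nox replicate 2, 3 or 4 (adjusted p up to 0.0781 there, 5.84e-05 to 0.371 over all alternatives). The factors Bhlhe40 (7.19 ± 1.83 to 26.7 ± 5.77 CPM), Bhlhe41 (3.70 ± 1.04 to 11.1 ± 3.0 CPM) and Nr1d2 (7.40 ± 2.37 to 26.1 ± 8.48 CPM), all known from the circadian clock, rose. Their DMSO levels were 22.2 ± 9.59, 13.2 ± 4.12 and 21.1 ± 2.80 CPM. Cd68, a lysosomal macrophage marker, was at 533 ± 141 and 540 ± 162 CPM.

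Of 18 glycolysis genes, 1 rose (5.56%, against 7.37% of all genes) and 2 fell (11.1%, against 6.40%). Those called were Pfkfb3, given above, Hk2, hexokinase 2, which fell from 200 ± 20.5 to 103 ± 28.7 CPM, and Pfkp, a phosphofructokinase, which rose from 149 ± 33.8 to 257 ± 35.8 CPM. Pkm, pyruvate kinase, was at 2364 ± 491 and 2397 ± 558 CPM and Eno1, enolase, at 1127 ± 148 and 1042 ± 151 CPM. Of 12 hypoxia genes 3 rose, among them Ndrg1 (18.8 ± 1.41 to 58.6 ± 9.99 CPM) and Vegfa, and Hif1a was at 141 ± 21.9 and 115 ± 13.7 CPM (adjusted p = 0.219). Of 65 nuclear genes of mitochondrial respiration, 3 fell (4.62%), all among the 25 of pyruvate and the TCA cycle. Of the 40 of oxidative phosphorylation, 0 were called. With the block 9 fell and 2 rose, beside 12.7% lower and 12.3% higher over all genes. The number that fell was 1 without LPS replicate 2, 3 or 4 and 0 without LPS+TM7nox replicate 3 or 4, and 1 rose without LPS+TM7nox replicate 1. The median was -0.11. None of the 7 mitochondrially encoded mRNAs tested was called in edgeR, DESeq2 or limma-voom, and 0 had an unadjusted p under 0.05. Replicates 1 and 2 gave a median of 0.32, and replicates 3 and 4 one of -0.18, and the other 6 of the list did not pass the filter on low counts.

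Some lipid genes fell and a few rose. Of 30 sterol genes, 5 fell and 1 rose, with a median of -0.32; 12 fell with the block or without DMSO replicate 1, and 3 without LPS+TM7nox replicate 3 or 4. The number that rose was 2 without DMSO replicate 1. Hmgcs1, an early enzyme of cholesterol synthesis, fell from 35.3 ± 4.47 to 18.2 ± 2.86 CPM. Npc1, which moves cholesterol out of lysosomes, rose from 46.7 ± 4.55 to 84.1 ± 4.62 CPM. Of 19 fatty acid genes 3 fell, and 6 fell with the block, with a median of -0.18 and 8 of the 19 above 0. Elovl6, a fatty acid elongase, fell from 5.32 ± 0.629 to 2.39 ± 0.314 CPM, with 35.3 ± 5.40 in DMSO. Of 16 genes of the LXR and PPAR pathways, 3 fell and 1 rose, with a median of 0.01 and 8 of the 16 above 0. Abca1 and Lipg are given above, and Ppard, a nuclear receptor of fatty acids, rose from 21.8 ± 6.55 to 49.5 ± 7.09 CPM. With the block 3 rose, and 2 rose without LPS+TM7nox replicate 3 or 4 or DMSO replicate 1. Lpl, lipoprotein lipase, was at 1639 ± 208 and 1311 ± 317 CPM (adjusted p = 0.390).

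Metal genes changed in both directions. Of 25 tested, 5 rose (20.0%, beside 7.37% over all genes) and 6 fell (24.0%, beside 6.40%), and 8 rose with the block. Slc40a1, Hmox1 and Blvrb are given above. Mt1, a metallothionein that binds zinc and copper, was at 379, 617, 768 and 597 CPM in LPS and at 218, 207, 143 and 142 CPM with TM7nox. It fell to near the 152 ± 49.1 CPM of DMSO cells (log2 fold change -1.73, SE 0.265, adjusted p = 0.000682). Slc30a1, the exporter of zinc, went the other way, from 9.58 ± 5.99 to 36.6 ± 17.5 CPM (adjusted p = 0.00589). Tfrc, the transferrin receptor that imports iron, was at 358 ± 56.1 and 359 ± 85.1 CPM. Of 21 purine genes, 4 fell and 1 rose; 7 fell with the block, and 2 fell without LPS replicate 2 or 4 or LPS+TM7nox replicate 3 or 4, and 7 without DMSO replicate 1. Ampd3 was the member that rose. Adora2b, a receptor of extracellular adenosine, fell from 83.3 ± 9.21 to 20.8 ± 3.45 CPM and Gda, guanine deaminase, from 31.6 ± 12.4 to 8.04 ± 4.38 CPM.

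Actin genes were lower where they passed the test. Of 32 tested 10 fell, with a median of -0.23. Actb, beta-actin, was at 12649, 11365, 12451 and 11982 CPM in LPS and at 6524, 6126, 6519 and 6236 CPM with TM7nox. The groups were tight and far apart (log2 fold change -0.93, SE 0.174, adjusted p = 0.00261), and DMSO cells held 6197 ± 1521 CPM. Its direction and call were the same under TMM, RLE and upper quartile scaling. Actg1, gamma-actin, fell from 1392 ± 171 to 708 ± 185 CPM, Zyx, zyxin of focal adhesions, from 120 ± 20.1 to 60.1 ± 9.75 CPM and Srf, the factor that drives actin genes, from 47.5 ± 4.16 to 29.2 ± 6.90 CPM. Vim, vimentin, was at 2298 ± 1133 and 2264 ± 730 CPM and Msn, moesin, at 1246 ± 129 and 1257 ± 91.0 CPM. Of 20 genes of matrix and its proteases 6 fell. Besides Timp1, Mmp9 (95.5 ± 25.9 to 29.5 ± 9.92 CPM) and Mmp14 (17.6 ± 6.67 to 4.55 ± 1.58 CPM) fell, both matrix metalloproteases. Spp1, osteopontin, was at 7535 ± 1076 and 6479 ± 1433 CPM.

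Notch1, a receptor that in macrophages is raised by LPS signalling, was at 87.6, 98.6, 104 and 109 CPM in LPS and at 22.5, 29.1, 36.7 and 34.9 CPM with TM7nox. It fell in each replicate (log2 fold change -1.69, SE 0.174, adjusted p = 3.55e-05), and DMSO cells held 2.09 ± 0.542. Of 12 genes of its pathway 2 fell, and 1 fell, Notch1, without LPS replicate 1 or 2 or without any 1 LPS+TM7nox replicate. Of 32 cell death genes, 5 fell (15.6%, beside 6.40% over all genes) and 2 rose (6.25%, beside 7.37%). With the block 5 rose, beside 12.3% of all genes, and 3 fell without LPS replicate 3 or 4. Ninj1, which ruptures the membrane of dying cells, rose from 125 ± 18.5 to 238 ± 20.1 CPM and Bid, a link between death receptors and mitochondria, from 71.7 ± 12.7 to 111 ± 12 CPM. Pycard, the inflammasome adaptor Asc, was at 1.07, 0.582, 0.178 and 0.199 CPM in LPS and at 0 in all 4 libraries with TM7nox (adjusted p = 0.0106), levels too low for a fold. Mcl1, a survival factor, was at 529 ± 25.1 and 432 ± 49.8 CPM (adjusted p = 0.119; 0.0149 with the block, 0.00641 to 0.765 over the alternatives).

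Translation factors split, and no ribosomal protein gene passed the test. Of 25 genes of translation and ribosome synthesis, 4 rose (16.0%) and 5 fell (20.0%), beside 7.37% and 6.40% over all genes. With the block 8 fell, and 2 to 3 fell without LPS replicate 1, 3 or 4 or LPS+TM7nox replicate 2, 3 or 4. Eif4ebp1, which holds back cap-dependent translation, was at 67.7, 76.4, 104 and 97.7 CPM in LPS and at 277, 227, 262 and 260 CPM with TM7nox. The groups lay far apart (log2 fold change 1.57, SE 0.136, adjusted p = 8.97e-06). Eef2k, the kinase that slows elongation, rose from 1.67 ± 0.246 to 5.26 ± 0.482 CPM, and Eif5 from 327 ± 43.7 to 565 ± 33.4 CPM. Nolc1, a chaperone of nucleolar particles, fell from 282 ± 51.4 to 166 ± 9.17 CPM. None of 46 ribosomal protein genes was called in edgeR, DESeq2 or limma-voom, 0 had an unadjusted p under 0.05, 2 rose with the block, and the median was 0.14. Their share of all counts was 2.80% ± 0.227 in LPS and 2.98% ± 0.241 in LPS+TM7nox (exact two-sided permutation test, p = 0.343, adjusted 0.514).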

How the data were processed

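The deposited table holds raw counts of reads per gene for 55483 genes, made by the authors from stranded libraries. The submitters' processing notes name FastQC 0.11.9, STAR, HTSeq, DESeq2 and GRCm39, and give no settings. The 12 total RNA libraries were fitted together with edgeR 4.0.16 (R 4.3.3, TMM scaling, a minimum count of 10, quasi-likelihood test, Benjamini-Hochberg adjustment over 12369 genes), and genes were called at an adjusted p under 0.05. Levels are CPM of TMM-scaled libraries. The fitting recovered known changes when tested on simulated data. Those data held no effect shared by replicates of the same number, so that setting was not tested. Replicates of the same number deviated together (r 0.56, 0.56, 0.51 and 0.58; different numbers -0.49 to 0.48, with 0.48 and 0.43 between replicates 3 and 4), so the labels' numbers were taken to pair the samples, and a fit with this block was an alternative. In all, 21 alternatives were fitted, with DESeq2 1.42.0 and limma-voom (limma 3.58.1) among them. The members and gene lists were chosen with earlier results of these data known. Named genes are the 12 largest changes per direction among called genes without overlap and with a mean of at least 5 CPM, up to 5 called and 2 other members per role of each list, and a panel of inflammatory genes with Elavl1 and Hmox1; exceptions are marked. Gene coordinates are from GENCODE M39 on GRCm39. Total counts of 16258731 to 28285856 limit the precision for low genes, and DMSO replicate 1 held 2728534. Some named genes are not reported here.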

Additional observations from a re-analysis of the deposited data

Results flagged for a closer look

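Single libraries stood far from the other 3 of their group for 3 of the most changed genes. Hmox1 in LPS+TM7nox replicate 2 was at 1747 CPM, above the 1164 to 1214 CPM of the others. Il33 in LPS replicate 1 was at 17.5 CPM, below the 68.4 to 72.2 CPM of the others. Tm4sf1 was highest in replicate 1 of both groups, at 19.9 CPM in LPS and 3.23 CPM in LPS+TM7nox. Of 68 groups of 4 libraries examined, chance is expected to flag about 1 in 20. The calls of all 3 genes held without these libraries.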

How the results depend on the processing

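The number of calls, 1704, depended mostly on how the replicates entered. With the replicate block it was 3091 (1526 higher, 1565 lower), and with the block in the 8 libraries alone 4232 (2134 and 2098). Replicates 1 and 2 alone gave 168 (98 and 70) and replicates 3 and 4 alone 3489 (1797 and 1692). Leaving out 1 library of LPS or LPS+TM7nox gave 1199 to 1605 calls, 669 to 821 of them higher and 503 to 784 lower. The lower calls numbered 519 without LPS+TM7nox replicate 3 and 503 without LPS+TM7nox replicate 4. Scaling, filters, DESeq2 and limma-voom kept the total between 1706 and 2288, and without DMSO replicate 1 it was 2251, of which 1061 were lower. Of the named genes' results over all alternatives, 6002 kept direction and side of the threshold, 385 lost the call, 194 gained it and 0 changed sign with a call. With the block, 30 named genes gained a call and 0 lost it. The shares of counts moved by less than the spread between replicates in 11 alternatives. Depth limits the genes with few counts, such as Nqo1 and Pycard.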

Other observations

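The gene families described here were chosen after their values were seen, so nothing is read from their counts, which stand beside 7.37% higher and 6.40% lower over all genes tested. Of 9 clade B serpins tested, inhibitors of intracellular proteases for the most part, 5 rose and 2 fell. Serpinb9, the inhibitor of granzyme B, rose from 20.0 ± 8.56 to 85.0 ± 43.0 CPM (SD, n = 4 here and below; edgeR, adjusted p = 0.00260), and its close relative Serpinb9b from 3.37 ± 2.17 to 18.3 ± 9.72 CPM. Serpinb2, plasminogen activator inhibitor 2, fell from 98.1 ± 41.1 to 21.0 ± 12.1 CPM. Of 6 Ms4a genes, which encode four-pass membrane proteins, 5 fell, among them Ms4a6c from 63.4 ± 9.74 to 19.3 ± 6.09 CPM and Ms4a4c from 23.6 ± 4.01 to 7.57 ± 3.18 CPM. Ms4a7 was at 0.725 ± 0.391 and 0.731 ± 0.391 CPM. Close copies within both families can share reads.

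Of 5 nucleoside carriers of the Slc28 and Slc29 families tested, 2 fell, Slc28a2 and Slc28a2b, 1 rose and 2 did not pass the test. The member that rose was Slc29a3, from 15.2 ± 2.48 to 23 ± 3.38 CPM (edgeR, adjusted p = 0.0182). Its call ended without LPS replicate 3 or 4 or LPS+TM7nox replicate 2, 3 or 4 (adjusted p = 0.0514 to 0.0676). Slc28a2, a sodium-coupled nucleoside carrier, was at 98.5, 108, 105 and 100 CPM in LPS and at 21.7, 23.3, 28.9 and 26.8 CPM with TM7nox. The groups were tight and far apart (edgeR, log2 fold change -2.03, SE 0.195, adjusted p = 2.23e-05). Upp1, uridine phosphorylase, also picked after its values were seen, fell from 28.3 ± 5.05 to 5.81 ± 1.65 CPM.

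Rprl2, a noncoding RNA gene, stood at 887 CPM in LPS+TM7nox replicate 1 and at 1.15 to 2.29 CPM in the other LPS+TM7nox libraries. It was at 1.71 to 14.1 CPM in LPS and was not called (edgeR, adjusted p = 0.0748).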
